A study of Mus musculus with 9 samples.

Results

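The coreceptor gene Lrp6 and 9 further genes of the canonical Wnt pathway, Lrp5, Fzd1, Fzd3, Rnf43, Znrf3, Apc, Axin2, Ctnnb1 and Lef1, were followed across all 9 libraries of a mouse brain RNA-seq experiment. The 10 genes were chosen by name from the 40213 gene symbols in the deposited counts. Lrp6 was picked from measured values, because it was lower in exercised stressed mice than in sedentary mice, so its difference between those groups is given as a description with no test. Tissue came from the ventral hippocampus of wild-type C57BL/6J males, 8 weeks old when they were brought in, with 3 mice in each of 3 groups. Sedentary controls (SED) received no treatment. Stress-susceptible mice (SUS) had been restrained for 2 hours a day on 14 days and then stayed sedentary, and SUS_LE mice had the same restraint and then 2 weeks of low-intensity treadmill running. How mice were judged susceptible is not given in the labels, and exercised mice without restraint were not analysed here.

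In canonical Wnt signalling, a secreted Wnt protein binds a Frizzled receptor together with the coreceptor Lrp5 or Lrp6 at the cell surface. The bound receptors recruit Dishevelled and Axin, which keeps the destruction complex of Apc, Axin, glycogen synthase kinase and casein kinase from marking beta-catenin (Ctnnb1) for degradation, and beta-catenin then acts with TCF/LEF proteins on target genes in the nucleus. In the brain the pathway is known for its part in the formation of the hippocampus, in the birth of dentate granule cells in adults, in synapses and in the blood-brain barrier.

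Axin2 and Lef1 are textbook target genes of this pathway, and the bases just upstream of their starts are shown because their RNA levels are read below as those of target genes. The 250 bases before each start come from the RefSeq promoter table of build GRCm38.p6, both on the plus strand; the deposited counts were made on GRCm39. The Axin2 window lies at chr11:108920099-108920348 and the first of the Lef1 windows at chr3:131110047-131110296. Capitals mark CTTTG, the core of the TCF/LEF motif, or its reverse complement CAAAG.
Axin2: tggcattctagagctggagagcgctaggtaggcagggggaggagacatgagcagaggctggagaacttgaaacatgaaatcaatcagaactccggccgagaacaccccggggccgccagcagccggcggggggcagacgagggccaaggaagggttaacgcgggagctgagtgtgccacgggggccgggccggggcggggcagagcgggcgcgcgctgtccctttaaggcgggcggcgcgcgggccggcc
Lef1: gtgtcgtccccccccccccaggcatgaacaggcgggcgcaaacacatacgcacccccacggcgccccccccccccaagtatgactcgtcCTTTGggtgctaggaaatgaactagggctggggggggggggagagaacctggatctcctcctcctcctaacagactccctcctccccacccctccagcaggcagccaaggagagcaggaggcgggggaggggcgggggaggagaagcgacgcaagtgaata
The Lef1 window held 1 copy of the core and the Axin2 window none. The table held 10 windows for 5 of the 10 genes, Lef1, Fzd1, Ctnnb1, Rnf43 and Axin2, and no entry for Lrp5, Lrp6, Fzd3, Apc or Znrf3. On either strand the core was in 5 of the 10 windows, against 48.6% of all 32851 windows of this length. All of these but the Fzd1 window belong to Lef1, and some Lef1 windows overlap, so the windows are not independent. The longer forms CTTTGAT and CTTTGAA, which contain the core, were in 0 of the 10 windows and in 7.48% of all windows. These matches describe letters in these windows and are not measured binding sites.

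Library totals ran from 14172344 to 15582304 counts, and 16106 genes passed the filter on low counts, all 10 Wnt genes among them. Values are CPM, each gene's share of its library's counts in parts of 1000000, scaled by TMM factors, and 95% intervals come from the edgeR fit to all 9 libraries. Each of the 10 hippocampal pyramidal cell markers was tested, and they summed to 879 to 1010 CPM in every library; the 10 dentate granule cell markers were likewise detected. Markers of the choroid plexus, the epithelium that lies beside the hippocampus in the ventricle and secretes cerebrospinal fluid, differed strongly between libraries. All 12 of them were tested and none was at 0, and their summed level was 3290 to 4830 CPM in SED, 57 to 6710 CPM in SUS and 94.8 to 1670 CPM in SUS_LE. In bulk tissue, fewer cells of a type and less RNA per cell cannot be told apart. All libraries carry the same batch label.

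All 10 Wnt genes were expressed, over a wide range of levels. Per kilobase of the longest annotated transcript, Ctnnb1 was the most abundant at a mean of 86.4 CPM per kb, followed by Apc at 34.1 CPM per kb. The coreceptor Lrp6 at 7.91 CPM per kb and the receptor Fzd3 at 7.87 CPM per kb came next, and their ranges over the 9 libraries overlapped, at 6.85 to 9.38 and 6.65 to 9.39 CPM per kb. Axin2 stood at 5.23 CPM per kb, below every Lrp6 and Fzd3 value, as its highest library reached 5.6 CPM per kb. Znrf3 at 2.36 and Lef1 at 2.31 CPM per kb overlapped, as did Fzd1 at 1.69 and Lrp5 at 1.41 CPM per kb. Rnf43 was the lowest at 0.575 CPM per kb, with 22 to 50 counts per library. By library, Axin2 varied the least of the 10, with a ratio of 1.12 between its highest and lowest CPM, and Rnf43 the most, with a ratio of 2.32. SUS replicate 1 held the lowest value of 8 of the 10 genes, all but Lrp5 and Lef1, while 19.1% of all tested genes had their lowest value in that library and 19.3% their highest.

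**Figure D1:**
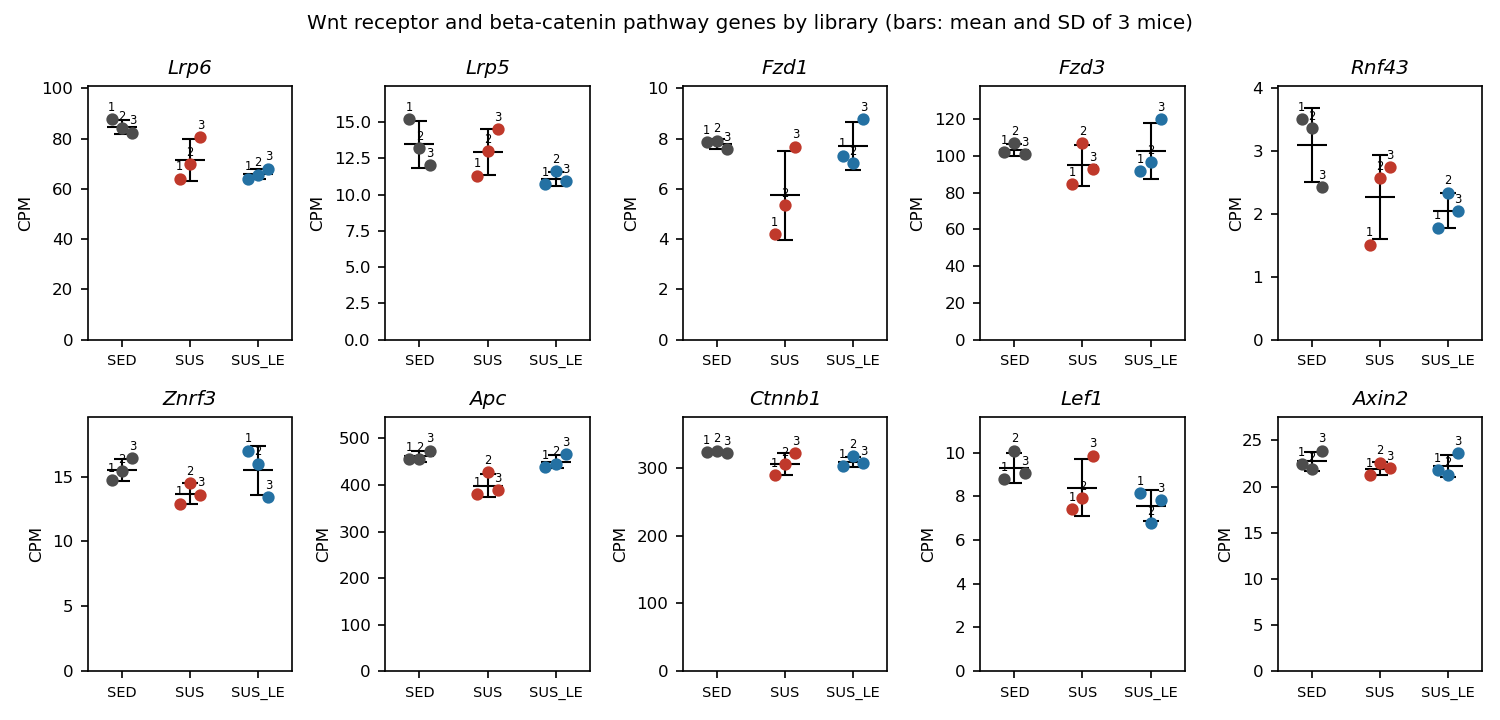
Level of each of the 10 Wnt pathway genes in CPM (vertical axes from 0, a separate scale for each gene) by group; each numbered point is 1 mouse, and the bars give the mean and SD of the 3 mice of a group. Lrp6 in SUS_LE, 64.1 to 68.1 CPM, sits below all SED mice, 82.4 to 87.8 CPM, and the SUS mice run from 64.1 CPM in replicate 1, the bottom of the SUS_LE range, to 80.6 CPM in replicate 3.

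Lrp6, the coreceptor whose phosphorylated tail draws Axin to the membrane, was present at 87.8, 84.1 and 82.4 CPM in SED replicates 1 to 3. In SUS the values were 64.1, 69.9 and 80.6 CPM, and in SUS_LE 64.1, 65.7 and 68.1 CPM. Every SUS and SUS_LE library was below every SED library, and SUS overlapped with SUS_LE at its low end and came near SED with replicate 3. The picked difference, SUS_LE against SED, was 66 ± 2.02 CPM against 84.8 ± 2.79 CPM (SD, n = 3 each), 22.1% lower, a log2 fold change of -0.36 (SE 0.07).

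Restrained mice that did not run had a mean Lrp6 level between those of SED and SUS_LE. SUS averaged 71.5 ± 8.36 CPM (SD, n = 3), 15.6% below SED, with a log2 fold change of -0.24 (95% interval -0.39 to -0.10), which did not pass the threshold (edgeR adjusted p = 0.169, DESeq2 adjusted p = 0.0535). This comparison uses the same SED libraries as the one that picked Lrp6, so it is not independent of the choice, and neither is SUS_LE against SUS, which uses the SUS_LE libraries of that contrast. The first value rested on which SUS mice were counted: without SUS replicate 3 the log2 fold change was -0.34 (edgeR adjusted p = 0.0322), and without SUS replicate 1 it was -0.17. With the trends of fold change with GC content and transcript length removed, a setting chosen after the data were seen, it was -0.14; over 14680 genes, Spearman's rho of this fold change was 0.35 with GC content and -0.23 with length. SUS_LE against SUS gave a log2 fold change of -0.12 (95% interval -0.27 to 0.03; edgeR adjusted p = 0.486), with overlapping groups. That value was -0.03 without SUS replicate 3 and -0.19 without SUS replicate 1.

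Lrp5, the close relative of Lrp6 that serves as the other coreceptor, was the less abundant of the pair in every library. Per kilobase, the ratio of Lrp6 to Lrp5 was 5.47, 6.03 and 6.54 in SED, 5.40, 5.08 and 5.27 in SUS, and 5.67, 5.37 and 5.94 in SUS_LE. Each SUS ratio was below each SED ratio, and SUS_LE overlapped with both groups. Lrp5 itself stood at 15.2, 13.2 and 12.0 CPM in SED, 11.3, 13.0 and 14.5 CPM in SUS, and 10.7, 11.6 and 10.9 CPM in SUS_LE. All SUS_LE values were below all SED values, with a log2 fold change of -0.28 (95% interval -0.54 to -0.02) that did not pass the threshold (edgeR adjusted p = 0.716). SUS overlapped with SED, at a log2 fold change of -0.06 (95% interval -0.31 to 0.20; edgeR adjusted p = 0.884).

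Fzd1 and Fzd3 encode Frizzled receptors; Fzd3 is also known for planar polarity signalling in axon guidance. Fzd1 was even across SED at 7.86, 7.92 and 7.57 CPM and spread in SUS at 4.19, 5.34 and 7.68 CPM, while SUS_LE held 7.32, 7.02 and 8.78 CPM. SUS replicates 1 and 2 were below all other libraries, and SUS replicate 3 lay within the SED range. The log2 fold change was -0.44 in SUS against SED (95% interval -0.82 to -0.06; edgeR adjusted p = 0.304) and 0.42 in SUS_LE against SUS (95% interval 0.04 to 0.80; edgeR adjusted p = 0.314), comparisons that share the SUS libraries. Single SUS mice moved both: the values were -0.26 and 0.24 without SUS replicate 1, and -0.71 and 0.69 without SUS replicate 3. SUS_LE and SED differed by -0.01 (95% interval -0.38 to 0.35). Fzd3 overlapped between all groups, at 102, 107 and 101 CPM in SED, 84.7, 107 and 92.9 CPM in SUS, and 91.5, 96.7 and 120 CPM in SUS_LE, and its edgeR adjusted p was 0.664, 0.682 and 0.992 in the 3 comparisons.

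Rnf43 and Znrf3 are membrane ubiquitin ligases that clear Frizzled and Lrp6 from the cell surface and are themselves known as Wnt target genes. Rnf43 was measured at 3.51, 3.36 and 2.43 CPM in SED, 1.51, 2.57 and 2.74 CPM in SUS, and 1.78, 2.34 and 2.04 CPM in SUS_LE. The SUS_LE values were all below the SED values, by a log2 fold change of -0.59 (95% interval -1.13 to -0.05; edgeR adjusted p = 0.714), while SUS overlapped with both. Znrf3 was measured at 14.7, 15.4 and 16.4 CPM in SED, 12.9, 14.5 and 13.6 CPM in SUS, and 17.0, 16.0 and 13.4 CPM in SUS_LE. For Znrf3 it was SUS that stood below SED, at -0.18 on the log2 scale (95% interval -0.41 to 0.05; edgeR adjusted p = 0.503), and SUS_LE equalled SED on average, with a log2 fold change of 0.00 (95% interval -0.23 to 0.23).

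Apc, the scaffold of the destruction complex, had its lowest values in SUS. Its level was 455, 455 and 474 CPM in SED, 380, 427 and 389 CPM in SUS, and 439, 446 and 466 CPM in SUS_LE. The SUS values were below all values of both other groups, and SUS_LE overlapped with SED. Against SED the SUS mean was 13.6% lower, 399 ± 24.9 CPM against 461 ± 11.1 CPM (SD, n = 3 each), with a log2 fold change of -0.21 (95% interval -0.33 to -0.10; edgeR adjusted p = 0.149, DESeq2 adjusted p = 0.01). SUS_LE was 12.9% above SUS, with a log2 fold change of 0.18 (95% interval 0.06 to 0.29; edgeR adjusted p = 0.174, DESeq2 adjusted p = 0.038). The same SUS libraries enter both comparisons. Without DESeq2's own filter on low-mean genes (independent filtering), its adjusted p for Apc was 0.0326 in SUS against SED and 0.0995 in SUS_LE against SUS. With the GC and length trends removed, the values were -0.08 and 0.11 (edgeR adjusted p = 0.702 and 0.602); the Apc transcript is 12811 nt long with 44.3% GC, against medians of 3421 nt and 49.7%.

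Axin2, which limits the pathway as a feedback inhibitor and is widely used as its readout, was level across the groups. It stood at 22.4, 21.9 and 23.9 CPM in SED, 21.2, 22.6 and 22.0 CPM in SUS, and 21.8, 21.3 and 23.6 CPM in SUS_LE. All 3 groups overlapped. The log2 fold changes were -0.05 in SUS against SED (95% interval -0.22 to 0.12), 0.02 in SUS_LE against SUS (-0.15 to 0.19) and -0.03 in SUS_LE against SED (-0.20 to 0.14).

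Ctnnb1, which encodes beta-catenin itself, differed by a few percent between groups. SED held 324, 326 and 322 CPM, SUS 290, 306 and 322 CPM, and SUS_LE 303, 318 and 307 CPM. Both restrained groups were below SED in every library, narrowly so in SUS replicate 3, by -0.08 (95% interval -0.19 to 0.02) and -0.07 (-0.17 to 0.04) on the log2 scale, with edgeR adjusted p = 0.502 and 0.849. RNA counts say nothing of the stabilised beta-catenin protein through which the pathway signals. Lef1, a DNA-binding partner of beta-catenin, stood at 8.78, 10.1 and 9.06 CPM in SED, 7.42, 7.91 and 9.87 CPM in SUS, and 8.14, 6.76 and 7.83 CPM in SUS_LE. Its SUS_LE values were all below SED, by -0.30 on the log2 scale (95% interval -0.59 to 0.00; edgeR adjusted p = 0.749), and SUS overlapped with both.

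Across the 10 genes, SUS stood below SED in the fitted value of all 10, although no gene passed the edgeR threshold of an adjusted p of 0.05. The median log2 fold change was -0.16 against 0 over all tested genes, of which 50.1% were lower; it was -0.10 without SUS replicate 1, and -0.09 against 0.02 over all genes, with 9 of 10 genes lower, with the GC and length trends removed. Cell type markers of several lists stood lower in SUS too: all 10 oligodendrocyte markers (median log2 fold change -0.18, 6 with an unadjusted p under 0.05) and all 10 dentate granule cell markers (median -0.17, 3 under 0.05). So did all 12 choroid plexus markers (median -0.44), 9 of 10 endothelial markers (median -0.09) and 9 of 10 meningeal fibroblast markers (median -0.19). In each of these lists 0 were under 0.05. In the remaining lists, 5 of 10 astrocyte, 4 of 10 pyramidal cell, 3 of 10 thalamus and 2 of 10 microglia markers were lower. The oligodendrocyte markers summed to 3080 to 3300 CPM in SED, 2600 to 2970 CPM in SUS and 2660 to 3300 CPM in SUS_LE, and the dentate markers to 367 to 459, 333 to 390 and 389 to 458 CPM. Astrocyte markers summed to 5430 to 5690 CPM in SED, 5060 to 5220 CPM in SUS and 5500 to 5750 CPM in SUS_LE. For endothelial markers the sums were 329 to 342, 294 to 331 and 352 to 368 CPM. The part of these cell types in the Wnt gene values was not tested. In edgeR 0 of 10 passed, as did 0% of all tested genes; 3 of 10 had an unadjusted p under 0.05 (Lrp6, Fzd1 and Apc), against 13.1% of all. By DESeq2, Apc passed among the 4 members given an adjusted p, against 4.51% of all genes given one. Groups did not overlap for 4 of 10 genes with SUS lower (Lrp6, Znrf3, Apc and Ctnnb1), against 8.56% of all tested genes, and for 0 of 10 with SUS higher, against 9.72%. Since the genes were chosen with results of these data known, these shares are descriptions of the chosen genes.

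SUS_LE against SUS gave no common direction, with 6 genes higher and 4 lower and a median log2 fold change of 0.02 against 0 over all genes. In edgeR 0 of 10 passed, as did 0% of all genes, and 2 had an unadjusted p under 0.05 (Fzd1 and Apc), against 13.7% of all. By DESeq2, Apc passed among the 4 members with an adjusted p, against 3.57% of all genes with one, but it did not pass without independent filtering. Apc was also the 1 gene of 10 with all SUS_LE values above all SUS values, against 8.61% of all genes, and 0 of 10 had all values lower, against 8.38%. SUS_LE against SED, the contrast that picked Lrp6, had all 10 fitted values below 0, but most were close to it: the median was -0.05 against 0.01 over all genes, and 47.1% of all genes were lower. That median was -0.13 without SUS_LE replicate 3, and with the GC and length trends removed 6 of 10 genes were lower. In edgeR 0 of the 9 genes other than Lrp6 passed, as did 0% of all genes. DESeq2 passed 0.0994% of all genes and 0 of those 9. All SUS_LE values were below all SED values for 5 of 10 genes (Lrp6, Lrp5, Rnf43, Lef1 and Ctnnb1), against 8.64% of all, and above for 0 of 10, against 7.54%. The Lrp6 part of these counts follows from how it was picked.

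**Figure D2:**
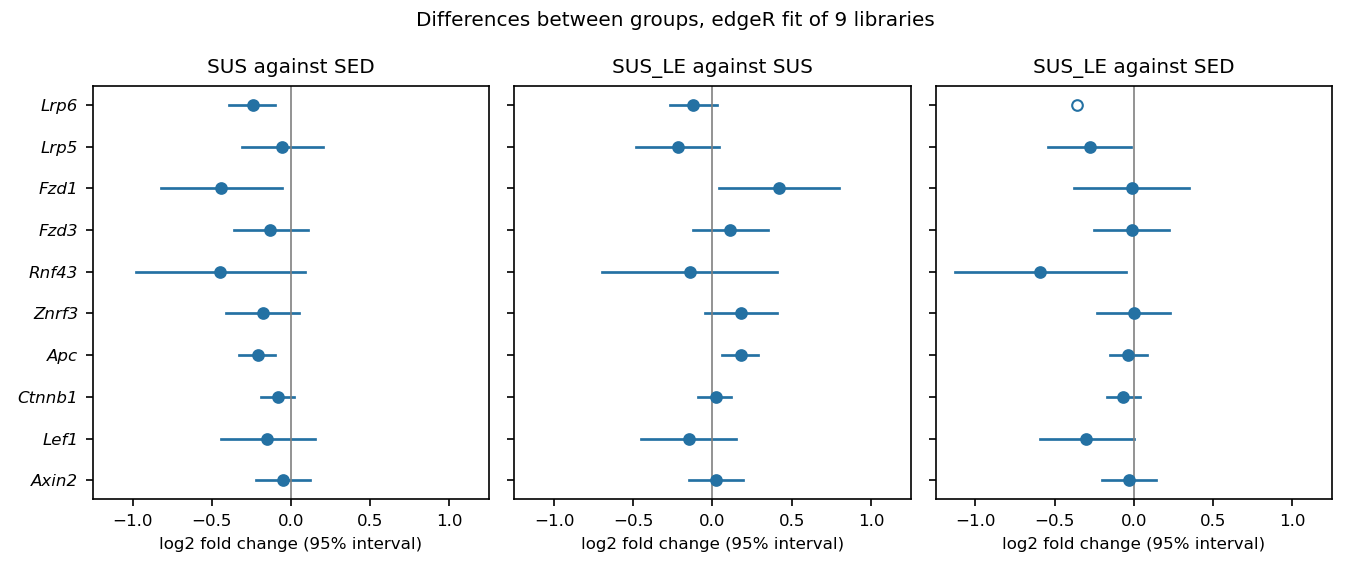
Log2 fold change of the 10 Wnt pathway genes (horizontal axis) for SUS relative to SED (left), SUS_LE relative to SUS (middle) and SUS_LE relative to SED (right), with 95% intervals from edgeR as lines; the hollow point is Lrp6 in the contrast that picked it, drawn without an interval. All 10 points lie below 0 in SUS against SED, and the intervals of Lrp6, Fzd1 and Apc there do not reach 0.

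In SUS and SED, though not in full in SUS_LE, the library order of several members was that of the choroid plexus markers. Ttr, the main secreted product of that epithelium, was at 4310, 3540 and 2930 CPM in SED, 27.4, 2660 and 6080 CPM in SUS, and 83.2, 1510 and 59.6 CPM in SUS_LE. The mean centred log2 level of the 12 markers, used as a score, was 1.93, 1.67 and 1.37 in SED, -3.19, 1.08 and 2.25 in SUS, and -2.54, 0.14 and -2.71 in SUS_LE. The SUS order of Lrp6, Fzd1, Lef1, Rnf43, Lrp5 and Ctnnb1 followed the score, with replicate 1 lowest and replicate 3 highest, whereas Apc, Axin2, Znrf3 and Fzd3 had replicate 2 highest. The SED order of Lrp6, Lrp5 and Rnf43 followed the score too, with replicate 1 highest and replicate 3 lowest. Znrf3 ran the opposite way in SED, and the remaining members took other orders. Shares of all tested genes in these orders are not given here, so the matches are not set against a background. Within SUS_LE, replicate 2 had the highest score, and replicates 1 and 3 had low scores close to each other. Rnf43, Lrp5 and Ctnnb1 were highest in replicate 2, whereas Lrp6 and Fzd1 were highest in replicate 3 and Lef1 was lowest in replicate 2. With the score as a covariate, the Lrp6 log2 fold changes were -0.18 in SUS against SED, -0.04 in SUS_LE against SUS and -0.23 in SUS_LE against SED; leaving out the 3 libraries with least Ttr they were -0.18, -0.19 and -0.37, but SUS_LE is then replicate 2 alone, assumed to vary like the other groups. The SUS_LE against SED value of Rnf43 was -0.09 and that of Lrp5 -0.08 with the covariate. The Apc values with it, -0.20 in SUS against SED and 0.19 in SUS_LE against SUS, were close to those without it. Under the covariate 6 of 10 genes were lower in SUS_LE than in SED, and 9 of 10 were lower in SUS than in SED. The part of choroid plexus RNA in the Lrp6, Rnf43 and Lrp5 values was not tested further.

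**Figure D3:**
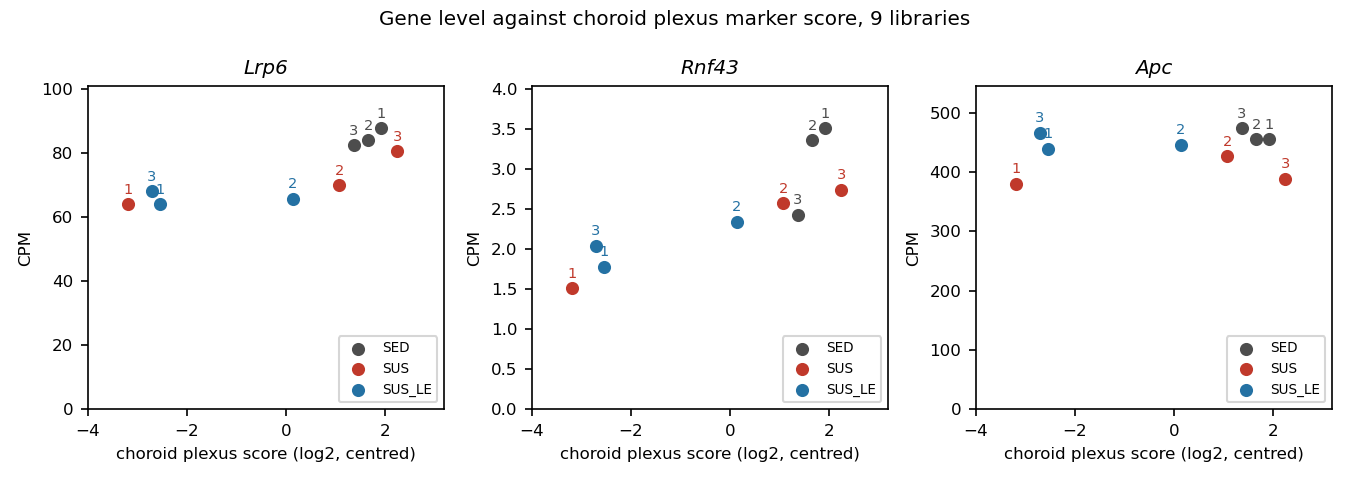
Level in CPM of Lrp6, Rnf43 and Apc (vertical axes from 0) against the choroid plexus score (horizontal axis, mean centred log2 CPM of 12 markers); each point is 1 library, coloured by group and marked with its replicate number. SUS replicate 1 and SUS_LE replicates 1 and 3 have scores from -3.19 to -2.54 and Lrp6 from 64.1 to 68.1 CPM, whereas Apc in those 3 libraries runs from 380 to 466 CPM.

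The rest of the pathway was listed by role as 107 genes, of which 91 were tested. In each of the 3 comparisons 0 of 91 passed the edgeR threshold, as did 0% of all tested genes. At an unadjusted p under 0.05 there were 11, 14 and 5 genes (12.1%, 15.4% and 5.49%) for SUS relative to SED, for SUS_LE relative to SUS, and for SUS_LE relative to SED, where all tested genes gave 13.1%, 13.7% and 6.64%. The list of receptors and coreceptors also held Rspo1, Rspo2, Rspo3 and Mesd, which are not receptors. It was lower in SUS than in SED for 14 of 20 tested genes, with a median log2 fold change of -0.13. Of the non-receptors in it, Rspo1 was lower (-0.14) and Rspo2, Rspo3 and Mesd were higher (0.17, 0.15 and 0.12). Secreted or surface antagonists were lower for 9 of 13, with a median of -0.04. Wnt ligands and their secretion factors were lower for 5 of 12, with a median of 0.05, nuclear beta-catenin partners for 6 of 14, with a median of 0.01, and Dishevelled and destruction complex genes for 13 of 22, with a median of -0.03. Beta-catenin target genes gave medians of -0.04, 0.05 and 0.03 in the 3 comparisons over 10 tested genes.

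In SUS against SED the smallest p values of this wider list came from genes that were higher in SUS. Gsk3a, a kinase that phosphorylates beta-catenin in the destruction complex, was at 139, 144 and 147 CPM in SED, 176, 159 and 158 CPM in SUS, and 152, 149 and 148 CPM in SUS_LE. Each SUS value exceeded every value of the other groups, with a log2 fold change against SED of 0.20 (95% interval 0.09 to 0.31; edgeR adjusted p = 0.155, DESeq2 adjusted p = 0.0342). Without independent filtering, the DESeq2 adjusted p of Gsk3a was 0.113. The casein kinase gene Csnk1g2 gave 0.16, the corepressor gene Tle2 0.29 and the beta-catenin cofactor gene Bcl9 0.19, each with all SUS values above all SED values and edgeR adjusted p from 0.216 to 0.222. In the list of 91 genes, 4 had all SUS values above all SED values, against 9.72% of all tested genes. All SUS values were lower for 6 of the 91, against 8.56% of all. Apc and Gsk3a, partners in 1 complex, stood on opposite sides of SED in SUS. Among other genes of that complex, Gsk3b, the paralog of Gsk3a, gave 0.02 (267 against 262 CPM). Axin1 gave -0.02 and the casein kinase gene Csnk1a1 -0.04. With the GC and length trends removed, Gsk3a gave 0.12 and Apc -0.08, both closer to SED. The Gsk3a transcript is 2260 nt long with 59.8% GC, and that of Apc 12811 nt with 44.3% GC. The part of GC content and length in this contrast was not tested further.

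In SUS_LE against SUS the leading genes were Sfrp2, Wnt7b, Bcl9l and Apc2. Sfrp2, a secreted antagonist that binds Wnt proteins, was rare, with 18, 20 and 22 counts in SED, 9, 12 and 10 in SUS, and 15, 28 and 30 in SUS_LE. Its SUS counts were the lowest, with a log2 fold change of 1.19 for SUS_LE against SUS (95% interval 0.45 to 1.92; edgeR adjusted p = 0.158). Wnt7b, a ligand known from dendrite growth and brain vessels, was at 29.1, 24.2 and 25.4 CPM in SUS and at 21.7, 22.3 and 20.8 CPM in SUS_LE, a log2 fold change of -0.28 (95% interval -0.46 to -0.10; edgeR adjusted p = 0.173). The beta-catenin cofactor gene Bcl9l, at -0.21, and Apc2, the Apc paralog of neurons, at -0.18, had edgeR adjusted p = 0.188 and 0.203, and their values with the choroid plexus score as covariate were -0.26 and -0.23 (edgeR adjusted p = 0.047 and 0.0389). With that covariate 2.65% of all tested genes passed in this comparison, against 0% without it. With the GC and length trends removed, Wnt7b, Bcl9l and Apc2 gave -0.17, -0.09 and -0.04.

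In SUS_LE against SED the leading genes were Gad1, Bcl9l, Sfrp5 and Fzd5. Gad1, an enzyme of GABA synthesis included among the target genes, was 10.6% higher (log2 fold change 0.15, edgeR adjusted p = 0.63), and Bcl9l was 10.4% lower (-0.16, edgeR adjusted p = 0.717). Sfrp5, another secreted antagonist, had 35, 30 and 17 counts in SED, 2, 15 and 48 in SUS, and 0, 6 and 5 in SUS_LE; a count of 0 allows up to 3 counts in that library. Its log2 fold change was -2.91 (95% interval -5.57 to -0.25; edgeR adjusted p = 0.72), its highest and lowest SUS libraries were those with the highest and lowest choroid plexus score, and the value was -0.60 with that score as covariate. The receptor gene Fzd5 gave -0.72 with overlapping groups (edgeR adjusted p = 0.742).

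**Figure D4:**
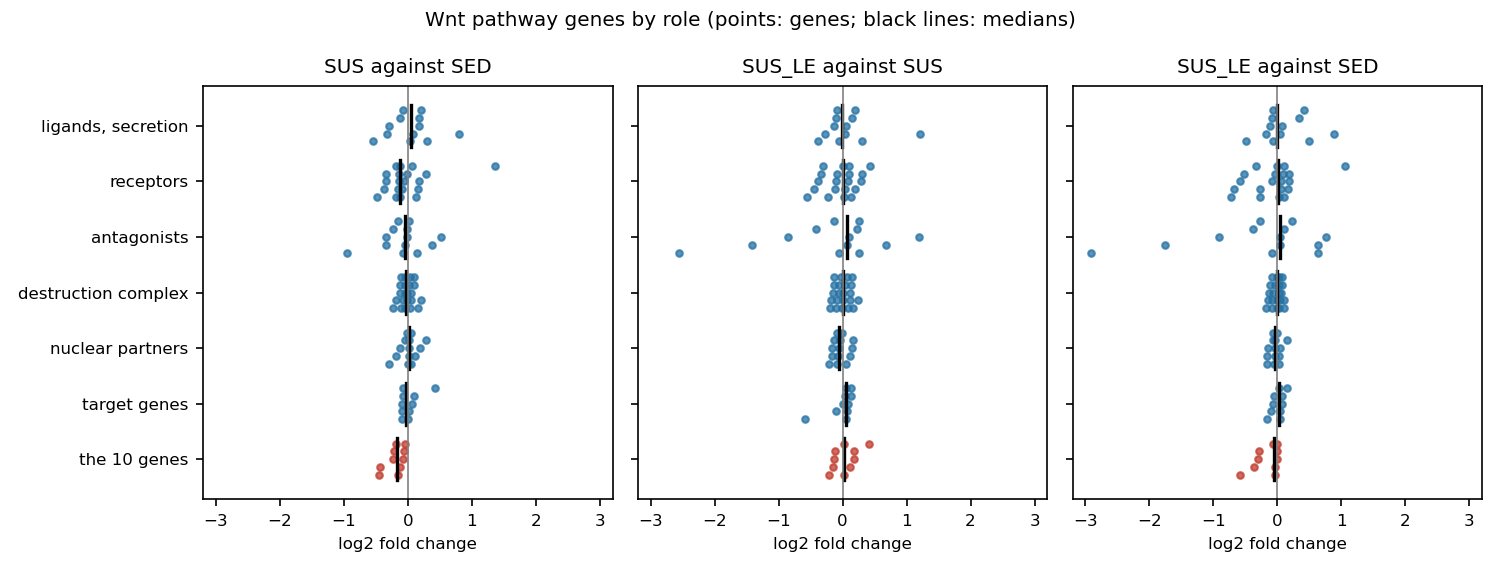
Log2 fold change (horizontal axis) of the 91 other tested Wnt pathway genes by role (blue, 6 rows) and of the 10 genes described first (red) in the 3 comparisons; each point is 1 gene and the black line marks the median of its row. The medians of the 6 roles lie between -0.13 and 0.07, and that of the 10 genes in SUS against SED at -0.16.

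Genes whose levels ran most like Lrp6 over the 9 libraries were Iqgap1, Ctnna1, Fndc3b, Brwd3 and Notch2, with Pearson r of log2 CPM from 0.951 to 0.969 among 14941 genes ranked. Ctnna1, which encodes the alpha-catenin that binds beta-catenin at cell junctions, averaged 74.9 ± 3.69 CPM in SED, 66 ± 9.72 CPM in SUS and 61.3 ± 0.948 CPM in SUS_LE (SD, n = 3 each). Notch2, a receptor of the Notch pathway, averaged 45.3 ± 2.48, 35 ± 8.48 and 31.2 ± 0.611 CPM in the same order. Like Lrp6, both had their largest SD in SUS, a likeness that follows from how they were chosen. Of the other Wnt genes, Rnf43 (r 0.86), Lef1 (0.82), Ctnnb1 (0.82) and Lrp5 (0.81) ran closest to Lrp6, and Fzd1 (0.49), Axin2 (0.37), Apc (0.31), Fzd3 (0.28) and Znrf3 (0.08) less so. Even so, Rnf43, Lef1, Ctnnb1 and Lrp5 ranked only 177, 351, 343 and 397 among the 14941 genes. Each of them, like Lrp6, had all SUS_LE values below all SED values, in the contrast that picked Lrp6. These correlations span 3 groups of the same 9 libraries, which share depth and tissue makeup, and are given as a description.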

How the data were processed

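Total RNA from 9 ventral hippocampus samples, extracted with RNAiso Plus and made into libraries with the CORALL kit per the labels' protocols, was sequenced by the submitters. The authors deposited whole-number counts per gene symbol, not normalized, 1 file per library. Per the submitters' processing notes, fastp, STAR and Salmon were used with GRCm39; their versions and roles, the annotation, strand setting, use of molecular identifiers and any rounding of estimates are not given in the sources used here. Headers number the SUS_LE libraries from 2 and the labels from 1; the labels' numbers were used. Every per-sample column was used (0 left out).

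Genes were kept with edgeR's filterByExpr, which left 16106 genes with 99.9% of counts. The main test was edgeR 4.0.16's quasi-likelihood test in R 4.3.3 (TMM scaling, robust fit, group as the only term, all 9 libraries), with p values adjusted by Benjamini-Hochberg over all tested genes and a threshold of 0.05; the common biological coefficient of variation was 0.0845. DESeq2 1.42.0, with independent filtering, gave no adjusted p for 6 of the 10 genes in SUS against SED and in SUS_LE against SUS, and limma 3.58.1 (voom with quality weights) was a further alternative. Other scalings and filters, fits of 2 groups, fits without each library, without the 3 low-Ttr libraries and with the choroid plexus score as covariate were also run. The removal of GC and length trends was added after the data were seen. The edgeR step was first tried on simulated counts with changes placed in SUS. The other tests and settings were not tried on simulated data.

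The genes and lists were chosen with earlier results of these data known. Of the other pathway genes, the 4 with the smallest p in each comparison are named, and the 5 genes most like Lrp6 by Pearson r at a mean CPM over 1. Lengths and GC came from GENCODE transcripts of the older build, matched by symbol for 91.1% of tested genes; gene coordinates are left out because the builds differ. Mice are separate per the labels' titles, and no 2 libraries agreed within sampling noise (chi-square per degree of freedom of 2.77 or more within groups). A difference between 2 groups of 3 mice by exact permutation cannot go below p = 0.1, so that test was not used.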

Additional observations from a re-analysis of the deposited data

How the results depend on the processing

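Of 920 gene results under alternative settings, 26 changed sign and 10 passed the threshold where the edgeR fit to all 9 libraries did not; the cause was not tested. Left out of these totals are Lrp6 in SUS_LE against SED, which has no test, and Znrf3 there, whose value of 0.00 has no direction (-0.08 to 0.09 over the alternatives). In SUS against SED, DESeq2 called 1 of the 10 genes (Apc), with or without independent filtering, edgeR without a filter on low counts called 2 (Apc and Lrp6), and leaving out single libraries gave 0 to 1 (Lrp6, without SUS replicate 3; 0.453% of all genes). In SUS_LE against SUS, DESeq2 called 1 (Apc), but only with independent filtering. Of the 91 other pathway genes in SUS against SED, DESeq2 called 1 (Gsk3a, only with independent filtering), no filter 1 (Tnks), and leaving out single libraries 0 to 1 (Fzd4, without SUS replicate 3). In SUS_LE against SUS, no filter gave 2 (Tnks and Sfrp1) and the choroid plexus covariate 4 (Bcl9l, Sostdc1, Tnks and Apc2), where 2.65% of all genes passed. In SUS_LE against SED, no filter gave 2 (Fzd7 and Sfrp1), fitting only the 2 groups 4 (Sfrp5, Fzd7, Fzd4 and Sfrp1; 1.52% of all genes), and leaving out single libraries 0 to 2 (Fzd4 and Sfrp1, without SUS replicate 3; 0.306% of all genes). Without a filter, 297, 430 and 218 of 26992 genes (1.1%, 1.59% and 0.808%) passed in the 3 comparisons, and DESeq2 without independent filtering passed 0.329% in SUS against SED. Same-numbered libraries showed no clear shared deviation (r from -0.12 to 0.18, 2 of 9 pairs over 0.1, 1 library closest to its own number), and differently numbered pairs reached 0.17. So few libraries cannot exclude a pairing, and the headers' numbering of SUS_LE was not checked. The mice were treated as unpaired. With the replicate block, 0 of the 10 genes passed in each comparison, and Lrp6 in SUS against SED was -0.25 (edgeR adjusted p = 0.189). Among the changes of sign, in SUS against SED, Lrp5 (-0.15 to 0.04 without single libraries) was 0.03 without the 3 low-Ttr libraries and 0.03 with the covariate, and Fzd3 was 0.03, from -0.13, without GC and length trends. In SUS_LE against SUS, the ranges without single libraries were -0.01 to 0.20 for Fzd3, -0.02 to 0.05 for Ctnnb1, -0.03 to 0.05 for Axin2 and -0.37 to 0.01 for Rnf43; without the low-Ttr libraries Fzd3 was -0.04 and Axin2 -0.06, without scaling Ctnnb1 was -0.01 and Axin2 -0.01, and with the covariate Rnf43 was 0.15, from -0.14. In SUS_LE against SED, the ranges were -0.12 to 0.05 for Fzd1 and -0.14 to 0.06 for Fzd3; with the covariate Fzd1 was 0.27, Fzd3 0.05 and Ctnnb1 0.02, and without GC and length trends Fzd1 was 0.02, Fzd3 0.04 and Apc 0.03. With 22 to 50 counts per library, depth limits Rnf43 the most of the 10 genes.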
